A study of Homo sapiens with 32 samples.

Results

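The genes described here encode the granule proteins and the interleukin-5 receptor alpha chain that define eosinophils, and their levels were followed across 32 human acute myeloid leukaemia (AML) cell lines. The 6 genes are CLC, EPX, PRG2, RNASE2, RNASE3 and IL5RA. For each gene the probe set that the platform annotation gives to that single symbol was taken, and where a gene had several, the one with the highest mean log2(signal + 16) over the lines was used. Of the 6 genes, 5 had such a probe set, out of 19775 genes with one. RNASE3 had none listed, so no value is given for it.

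Total RNA of each untreated line was hybridised to 1 Affymetrix expression array with 54675 probe sets, so no line has a replicate. The submitters' aim was to find genes whose expression goes with sensitivity to PIM kinase inhibitors, and sensitivity was not used here. EOL-1, known as a line of eosinophilic leukaemia with a FIP1L1-PDGFRA fusion, and ME-1, known as a line with inv(16) and its CBFB-MYH11 fusion, were each set against the other lines. Both were grown in RPMI 1640 with serum and no named cytokine, as were 19 of the other lines. IMDM without a named cytokine was used for SH-2, SHI-1, OCI-M1 and OCI-M2. F-36P received 5 ng/ml of IL-3 in RPMI 1640. The alpha-MEM of OCI-AML2, OCI-AML3 and OCI-AML5 held SCF or GM-CSF. For MOLM-13, MOLM-16 and MV4-11 no medium was stated. HL-60 with PLB-985 and KG-1 with KG-1A are known as a line and its subline, and each pair was averaged into 1 unit for the tests, which left 30 units. Each line stands for 1 leukaemia at most.

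Eosinophils store a small set of basic proteins in their specific granules, and release them on parasites and into inflamed tissue. They arise from bone marrow progenitors in which the transcription factors GATA1, PU.1 (SPI1) and the C/EBP proteins act together, and their output is driven by interleukin-5, which binds the alpha chain IL5RA paired with the common beta chain CSF2RB that the IL-3 and GM-CSF receptors also use. CLC encodes galectin-10, the protein of Charcot-Leyden crystals. PRG2 encodes major basic protein, the core of the granule. EPX encodes eosinophil peroxidase, a relative of the neutrophil enzyme MPO. RNASE2 encodes eosinophil-derived neurotoxin, a secreted ribonuclease that human neutrophils and monocytes make as well, and RNASE3 encodes its close paralog eosinophil cationic protein.

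The promoters of the genes are shown because GATA and C/EBP factors are the known regulators of this group. RefSeq promoters on build GRCh38.p14 were held for 3 of the 5 measured genes, and the 250 bases before each start are printed with the matches in capitals. They lie at chr19:39738030-39738279 on the minus strand for CLC, at chr14:20955237-20955486 on the plus strand for RNASE2 and at chr3:3110375-3110624 on the minus strand for IL5RA.
CLC: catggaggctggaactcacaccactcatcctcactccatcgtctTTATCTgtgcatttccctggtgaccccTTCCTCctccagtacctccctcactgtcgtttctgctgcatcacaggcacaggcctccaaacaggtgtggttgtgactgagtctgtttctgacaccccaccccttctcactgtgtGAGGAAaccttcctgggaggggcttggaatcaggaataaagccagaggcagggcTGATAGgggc
RNASE2: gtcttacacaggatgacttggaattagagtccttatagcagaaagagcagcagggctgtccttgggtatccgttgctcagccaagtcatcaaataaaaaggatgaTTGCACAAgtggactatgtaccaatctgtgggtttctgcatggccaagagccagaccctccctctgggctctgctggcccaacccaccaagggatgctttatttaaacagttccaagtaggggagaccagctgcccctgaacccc
IL5RA: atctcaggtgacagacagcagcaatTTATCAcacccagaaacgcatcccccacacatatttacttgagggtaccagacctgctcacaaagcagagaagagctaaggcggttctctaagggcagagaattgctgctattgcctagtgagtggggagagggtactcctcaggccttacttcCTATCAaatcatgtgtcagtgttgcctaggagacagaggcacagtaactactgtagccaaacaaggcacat
Both strands were searched for GATA sites, which are AGATAA and its variant AGATAG together with the form TGATAA and its variant TGATAG, for C/EBP sites, read as TTGCNNAA, and for PU.1 sites, read as GAGGAA, and no match overlapped another. CLC held 2 GATA matches, 1 of them ending 5 bases before the start, and 2 PU.1 matches. IL5RA held 2 GATA matches, both on the opposite strand, and RNASE2 held 1 C/EBP match, TTGCACAA, from 145 to 138 bases before its start. Over 35116 RefSeq promoters of the same length, 22.3% held a GATA match, 9.05% a C/EBP match and 23.6% a PU.1 match, so a match is a description of these letters only.

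The signals had been scaled to a trimmed mean of about 500 on every array. The median signal was 68.2 to 115.4 on 30 arrays, but 198.4 on NOMO-1 and 243.3 on GF-D8, where dim probe sets read higher. The 3'/5' ratio of the GAPDH control probe sets, a measure of RNA integrity, was 0.871 to 1.24 on 24 arrays and 2.42 to 7.08 on 8: GDM-1, HL-60, ML-2, MOLM-13, NB-4, THP-1, NOMO-1 and GF-D8. Its part in the results below was not tested except where values without these arrays are given. The fusion partner genes were read as a check of the names. MYH11 was highest of the 32 lines in ME-1 and RUNX1T1 in KASUMI-1, a line known for the RUNX1-RUNX1T1 fusion, while PDGFRA in EOL-1 ranked behind GF-D8 and NOMO-1.

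CLC was low in most lines and very high in a few. Its signal was 20765 in SKM-1, 18380 in HL-60 and 3062.1 in ME-1, followed by 991.3 in FKH-1 and 658.7 in SHI-1, and these were the 5 lines in which it lay above the 75th percentile of its own array. In the others it ran down from 426.8 in NOMO-1 to 14 in PL-21, and the median over all 32 lines was 54.15. EOL-1, with a signal of 26.4, was 28th of 32. SKM-1 and HL-60 were 1.13-fold apart on the log2(signal + 16) scale, and with 1 array each their order is not established. In such bulk RNA, more cells that express a gene cannot be told apart from more RNA per cell.

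**Figure D1:**
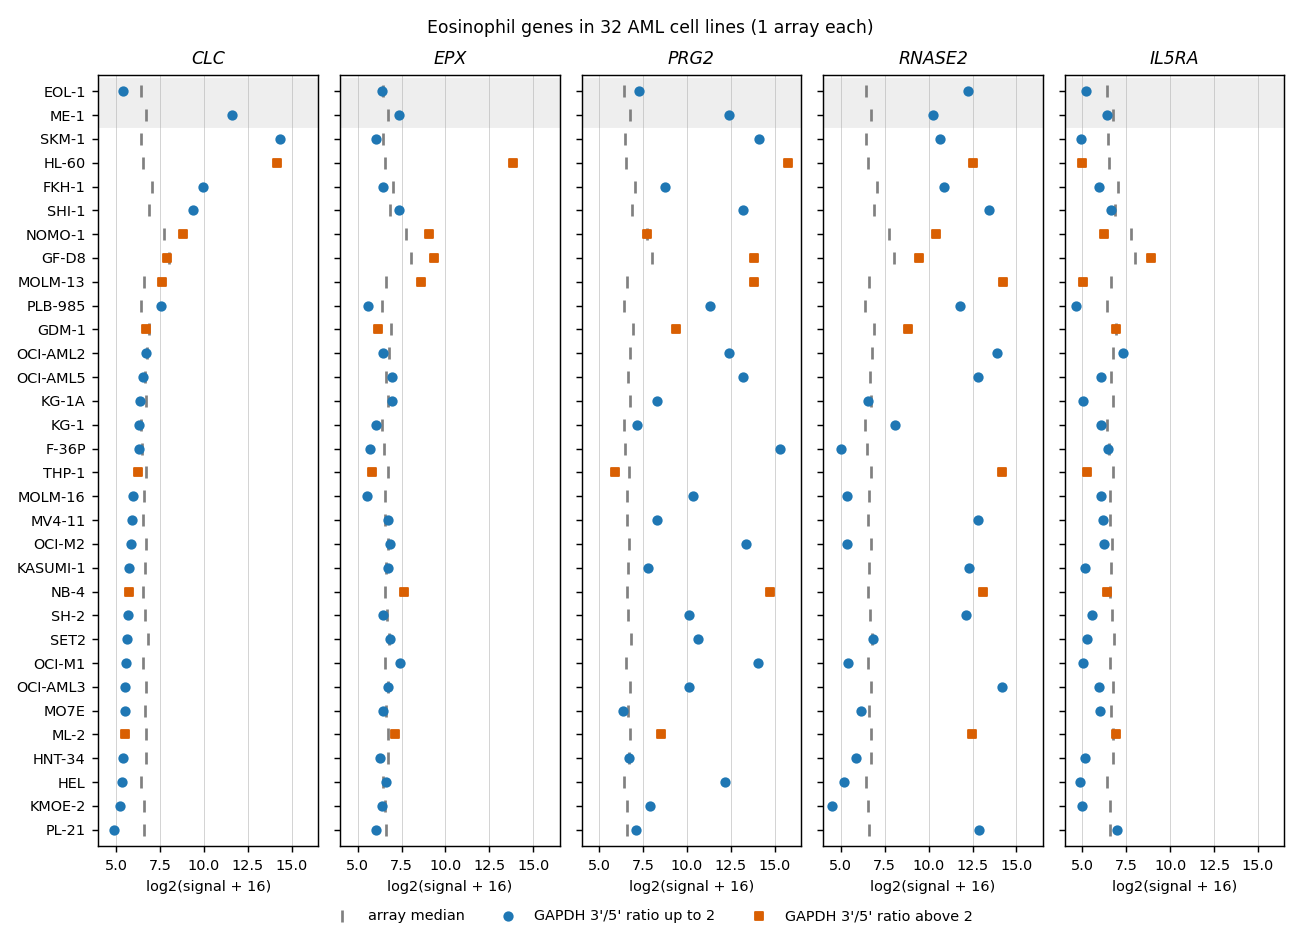
Level of each gene, as log2(signal + 16), in every line, with EOL-1 and ME-1 on top (shaded) and the other lines ordered by CLC. Grey ticks mark the median of each array, and orange squares mark arrays with a GAPDH 3'/5' ratio above 2. CLC stands far above the array median in a few lines, EPX in HL-60, and PRG2 and RNASE2 in many lines, while IL5RA stays near or below the median.

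EPX was high in a single line. Its signal in HL-60 was 14820, 22.6-fold above the next line on the log2(signal + 16) scale. GF-D8 at 639.6 and NOMO-1 at 520.8 came next, the 2 arrays with high medians, then MOLM-13 at 380.9 and NB-4 at 185.3. Each of these 5 is an array of high GAPDH ratio, and over the 32 lines the EPX level had r = 0.59 with the log2 of that ratio. ME-1 was 7th with 147.5, EOL-1 was 23rd with 66.5, and the lowest line was MOLM-16 with 31.3. Relative to its own array EPX passed the 75th percentile in 2 lines, HL-60 and GF-D8.

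PRG2, the gene of major basic protein, was high in many lines, some of them known as erythroid. Its signal was 55240 in HL-60, 40071 in F-36P, 27503 in NB-4, 17515 in SKM-1 and 16969 in OCI-M1, and it lay above the 75th percentile of the array in 19 of 32 lines. ME-1 was 12th with 5332.7 and EOL-1 27th with 140.3. The lowest lines were THP-1 with 43.9, MO7E with 66.9 and HNT-34 with 89.1. The signals covered a 923-fold range on the log2(signal + 16) scale. PRG3, the close paralog of PRG2, was above the filter in fewer than 3 units and was not tested, and its log2 level was highest in F-36P, at 7.89, and lowest in EOL-1, at 4.26.

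RNASE2 divided the lines more sharply than nearly any other gene. Its SD over the 30 units was 3.39 on the log2 scale, rank 15 of 15455 genes tested, against 2.92 for PRG2 (rank 66), 2.24 for CLC (rank 477), 1.04 for EPX (rank 4409) and 0.91 for IL5RA (rank 5882). The highest signals were 19109 in MOLM-13, 18715 in THP-1, 18475 in OCI-AML3, 15141 in OCI-AML2 and 11039 in SHI-1. EOL-1 was 13th with 4877.8 and ME-1 19th with 1202.7. At the other end stood KMOE-2 with 6.7, F-36P with 15.9 and HEL with 20.8, and 20 of 32 lines were above the 75th percentile of their array.

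The low end of RNASE2 held the lines known as erythroid or megakaryoblastic, and also HNT-34 and KG-1A. This description of F-36P, HEL, KMOE-2, MO7E, MOLM-16, OCI-M1, OCI-M2 and SET2 is background on the lines, since the labels give none, and the grouping was made with their values known. In these 8 lines GATA1, the factor of red cells, platelets and eosinophils, had signals of 564.8 to 2614, against 9.9 to 1281 in the other 24. KLF1, the erythroid factor, had a median signal of 3828 in the 8 lines and 60.6 in the other 24. It ran down to 95 in the 8 lines and up to 602.4 in the others, so it overlapped too. HBZ, listed with the erythroid markers, was above the 75th percentile of the array in 5 of 8 and 0 of 24. EPOR, of the same list, was so in 8 of 8 and 18 of 24. RNASE2 ran from 6.7 to 97 in the 8 lines (median 25.2), against 42.2 to 19109 in the other 24 (median 4995). The groups overlapped between 42.2 and 97, where HNT-34 had 42.2 and KG-1A 77.3, both below SET2 with 97. How many other genes part these lines as well was not counted. PRG2 did not follow RNASE2. Its signal was 66.9 to 40071 in the 8 lines (median 3035) and 43.9 to 55240 in the other 24 (median 865.7), and it was above the 75th percentile of the array in 6 of 8 and in 13 of 24. CLC reached 62.1 at most in the 8 lines (median 32.5), and EPX 153.5 (median 77.6). Most of the other 24 lines were low as well, with a median of 71.85 for CLC and 89.25 for EPX. Of these 24, CLC was above the 75th percentile of the array in 5 and EPX in 2, so low levels were not particular to the 8 lines.

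The gene with a course most like that of RNASE2 was AZU1, which belongs to the primary granules of neutrophils and monocytes. Over the 30 units, which share the platform and its scaling, AZU1 had r = 0.95 with RNASE2, RNASE2CP 0.94, LYST 0.92, KBTBD11 0.91 and NUDT7 0.91. The AZU1 signal had a median of 47.7 in the 8 lines known as erythroid or megakaryoblastic and 6769 in the other 24. It was above the 75th percentile of the array in 0 of 8 and 20 of 24. All r given here span both groups, and r within either group was not computed. AZU1 encodes the antibacterial protein azurocidin, and LYST a regulator of lysosome-related granules. RNASE2CP is a pseudogene related to RNASE2, and whether the RNASE2 probe set also takes up its RNA or that of RNASE3 was not tested. Of the other neutrophil granule genes tested, PRTN3 had r = 0.86 with RNASE2, CTSG 0.80, ELANE 0.77, MPO 0.54, MS4A3 0.52, DEFA4 0.38, LYZ 0.38, CAMP 0.34 and LCN2 -0.56. Of the 11 transcription factors listed, CEBPA had r = 0.83, IRF8 0.82, SPI1 0.57, CEBPE 0.51 and ID2 0.26. CEBPB had r = 0.14, TRIB1 0.13 and XBP1 0.08, while ZFPM1 had r = -0.51, GATA2 -0.64 and GATA1 -0.78. KLF1, listed with the erythroid markers, had r = -0.68. PRG2 and RNASE2 had r = -0.02 with each other.

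**Figure D2:**
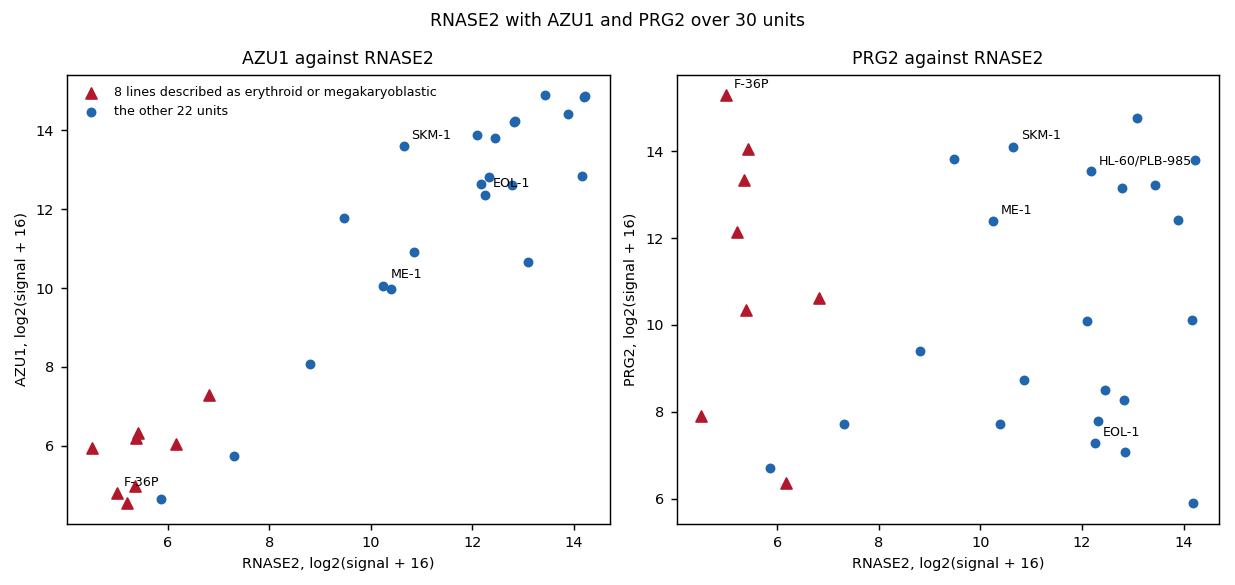
Log2(signal + 16) of AZU1 (left) and PRG2 (right) against RNASE2 in 30 units, with HL-60 and PLB-985 averaged, as were KG-1 and KG-1A. Red triangles are the 8 lines known as erythroid or megakaryoblastic. AZU1 climbs with RNASE2 (r = 0.95), and PRG2 shows no such course (r = -0.02).

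IL5RA gave low signals with the probe set the rule chose, 207902_at. Its signal was at most 465.7, in GF-D8, then 146.4 in OCI-AML2, and it lay above the 75th percentile of its array in no line and above the array median in 5. EOL-1 had a signal of 20.5 and ME-1 of 68.7, against a median of 46.5 over all lines and a minimum of 9.4 in PLB-985. Over the 32 lines its level had r = 0.61 with the median of the array.

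The other IL5RA probe sets gave another order. With 210744_s_at the signal was 1632.6 in MOLM-16, 428.9 in F-36P, 129.3 in GF-D8 and 116 in HL-60. With 211517_s_at it was 1310.4 in MOLM-16, 349.1 in F-36P, 318 in GF-D8 and 173.7 in HL-60. These probe sets had r = 0.87 with each other over the 32 lines, while r between the other pairs of probe sets was 0.23 to 0.38. The fourth, 211516_at, was highest in GF-D8 with 383.9. MOLM-16, a megakaryoblastic line, had signals of 50.5 with 207902_at and 28.8 with 211516_at. EOL-1 had signals of 19.8, 4.4 and 11.7 with these 3 probe sets and ME-1 of 37.6, 7.4 and 14.6, each below the median of its array. Which transcripts each probe set reads was not examined here.

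**Figure D3:**
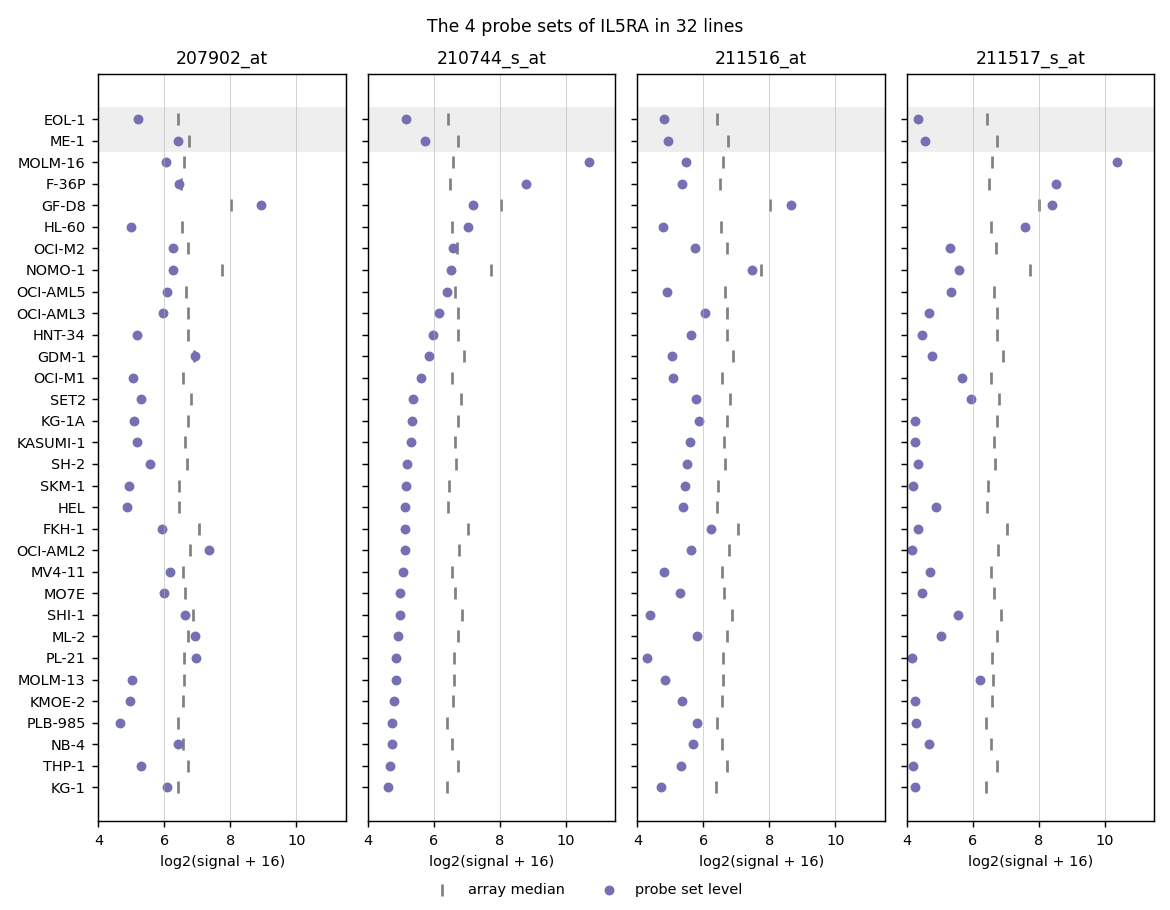
Log2(signal + 16) of the 4 IL5RA probe sets in every line, with EOL-1 and ME-1 on top (shaded) and the others ordered by 210744_s_at. Grey ticks mark the array medians. MOLM-16 and F-36P stand above the median with 210744_s_at and 211517_s_at, and lie below it with the other probe sets.

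The granule genes were high together in some lines and apart in others. HL-60 had 4 of the 5 measured genes above the 75th percentile of its array, all but IL5RA, and GF-D8, ME-1, SHI-1 and SKM-1 had 3. In 8 lines 2 genes were that high and in 14 lines 1, among them EOL-1, whose single such gene was RNASE2. HNT-34, KG-1, KG-1A, KMOE-2 and MO7E had none. Over the 30 units r was 0.37 for CLC and PRG2, 0.36 for EPX and PRG2, 0.33 for CLC and EPX, and 0.21 for CLC and RNASE2. For CLC and EPX it was 0.52 over the 32 lines and 0.19 without the HL-60 and PLB-985 unit. CEBPE, a C/EBP factor of late granulocytes, had r = 0.54 with EPX, 0.51 with RNASE2, 0.46 with CLC and 0.30 with PRG2. Without the HL-60 and PLB-985 unit these were 0.44, 0.51, 0.39 and 0.25. Over the 30 units the rank correlation of CEBPE with EPX was 0.26. CEBPE was highest in GF-D8, an array with a high median, at a log2 level of 12.69. Of the other factors, SPI1 had a higher r with PRG2, 0.35.

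The genes with courses most like those of CLC, EPX, PRG2 and IL5RA were less close than those of RNASE2. For CLC they were RBP7 (r = 0.66), FCN1 (0.64), PADI4 (0.64), GXYLT2 (0.63) and PADI2 (0.63), of which FCN1 encodes a lectin of monocytes and neutrophils and PADI4 a citrullinating enzyme of granulocytes. For PRG2 they were CHPT1, a phospholipid enzyme, with r = 0.64, and FZD3, MARCHF3, SSX2IP and DBP with r from 0.59 to 0.61. For EPX they were FASTKD1, DOHH, THOC1, ICOSLG and ADAT2, with r from 0.72 to 0.75, and each peaked in GF-D8 or NOMO-1. Without these 2 arrays the same 5 genes had r from 0.51 to 0.60 with EPX. For IL5RA they were GRIN2C, LOC101929305, ARHGAP22-IT1, MST1 and RB1-DT, with r from 0.76 to 0.79, and all 5 peaked in GF-D8.

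HL-60 and its subline PLB-985 differed more in EPX, CLC and PRG2 than in nearly all other genes. EPX had a signal of 14820 in HL-60 and 33 in PLB-985, a 303-fold difference on the log2(signal + 16) scale and the second largest increase among 15455 genes. CLC had signals of 18380 in HL-60 and 173.7 in PLB-985, 97.0-fold and rank 6. PRG2 had signals of 55240 in HL-60 and 2531.6 in PLB-985, 21.7-fold and rank 36. RNASE2 had signals of 5992.9 in HL-60 and 3563.3 in PLB-985, and IL5RA of 15.4 in HL-60 and 9.4 in PLB-985, both under 4-fold. Thus 3 of the 5 genes were at least 4-fold higher in HL-60, as were 2.96% of all genes tested, and none was 4-fold lower, as were 2.31%.

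Some genes of the other lists were at least 4-fold higher in HL-60. They were 2 of 10 neutrophil granule markers, 2 of 8 basophil and mast cell markers, 2 of 11 transcription factors, 1 of 6 monocyte markers and 1 of 4 erythroid markers (ALAS2). Another 1 of the 6 monocyte markers was at least 4-fold lower. The log2 difference, HL-60 minus PLB-985, was 4.98 for the neutrophil elastase gene ELANE but 0.13 for the protease gene PRTN3 and -0.84 for LCN2. It was 3.43 for the stem cell factor receptor gene KIT, 2.86 for CPA3, a protease of mast cells and basophils, 2.86 for the GATA1 partner ZFPM1 and 2.66 for GATA2. Among the monocyte markers it was 2.79 for the surface receptor CD14 and -3.34 for S100A9, a calcium-binding protein, with a median of 0.12 over the list. None of the 7 eosinophil surface and mediator genes tested reached 4-fold either way. CEBPE was high in both, with log2 levels of 11.76 in HL-60 and 11.53 in PLB-985, and GATA1 had 6.49 in HL-60 and 4.70 in PLB-985. There is 1 array of each, so the differences have no replicate check. The GAPDH ratio was 7.08 for HL-60 and 0.933 for PLB-985, and its part in these differences was not tested.

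KG-1A and KG-1 showed no such gap. In KG-1A minus KG-1 the log2 difference was 1.15 for PRG2, 0.91 for EPX, 0.06 for CLC, -1.01 for IL5RA and -1.52 for RNASE2, so 0 of 5 genes were 4-fold higher, as were 3.48% of all genes, and 0 of 5 were 4-fold lower, as were 2.39%.

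**Figure D4:**
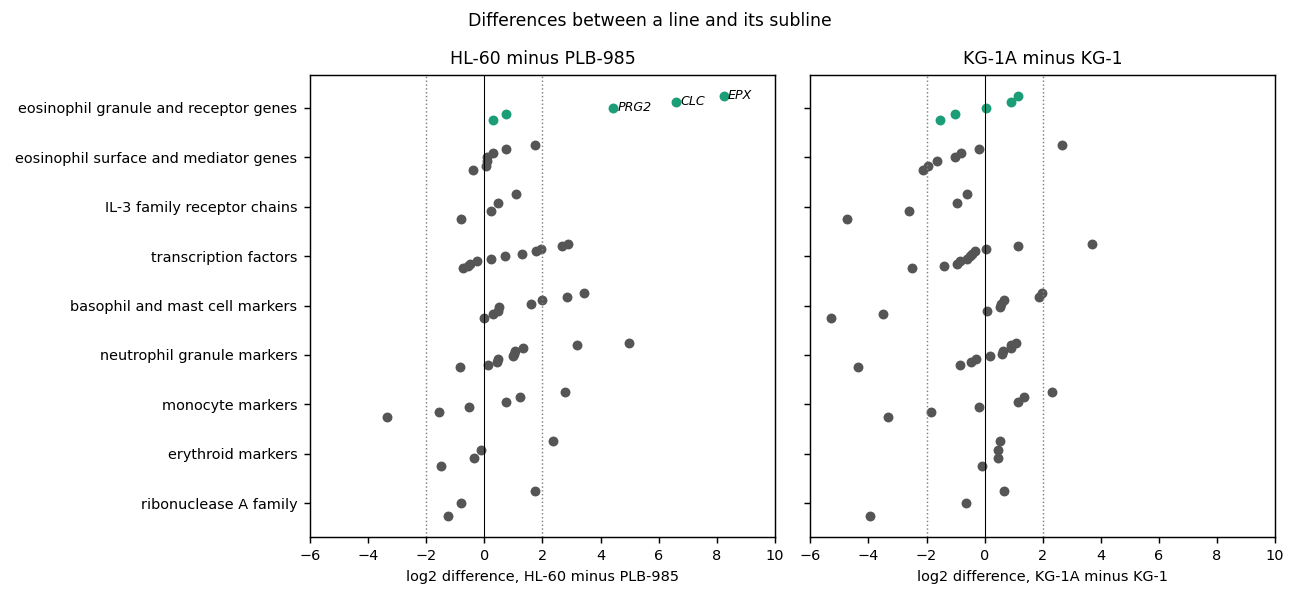
Log2 difference between a line and its subline for the genes of each list, HL-60 minus PLB-985 on the left and KG-1A minus KG-1 on the right, 1 array each. Dotted lines mark 4-fold. EPX, CLC and PRG2 lie far to the right in the HL-60 comparison, and none of the green points reaches 4-fold in the KG-1A comparison.

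In EOL-1, the line of eosinophilic leukaemia, none of the 5 eosinophil genes was among the highest units, and RNASE2 alone had a positive difference. Against the other 29 units the log2 difference was -3.38 ± 2.78 for PRG2, -1.59 ± 2.17 for CLC, -0.78 ± 0.93 for IL5RA, -0.58 ± 1.06 for EPX and 2.33 ± 3.27 for RNASE2, each ± SE. Its log2 levels were 7.29 for PRG2, 5.41 for CLC and 12.26 for RNASE2. It ranked 26th of the 30 units for CLC and PRG2, 23rd for EPX, 22nd for IL5RA and 12th for RNASE2. By limma, with Benjamini-Hochberg adjustment over all 15455 genes, 0 of the 5 passed (adjusted p = 1 for each), against 1 gene, or 0.00647%, of all tested. An unadjusted p under 0.05 was found for 316 genes. A single array was set against the spread of the other units, so only very large differences could pass. EOL-1 was the highest unit in 1.51% of all genes, the lowest in 3.72%, and among the 3 highest in 5.73%. None of the 5 genes had it there.

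No gene of the related lists passed in EOL-1. The median log2 difference was -0.54 for the eosinophil surface and mediator genes (2 of 7 positive), -0.57 for the transcription factors (5 of 11), 0.21 for the receptor chains (2 of 4), -1.33 for the basophil and mast cell markers (0 of 8), -1.28 for the neutrophil granule markers (3 of 10), -1.06 for the erythroid markers (0 of 4) and 2.36 for the monocyte markers (5 of 6), against -0.10 over all genes. Among the receptor chains CSF2RB had log2 levels of 10.36 in EOL-1 and 10.71 in the other units on average, and IL3RA of 7.47 in EOL-1 and 6.69 in the others. GATA1 had log2 levels of 5.25 in EOL-1 and 7.79 in the others, and S100A8, the partner of S100A9, of 14.27 in EOL-1 and 8.87 in the others. The median of the ribonuclease A family was -0.32. RNASE6, a monocyte ribonuclease of that family, had log2 levels of 11.64 in EOL-1, the highest unit, and 7.10 in the others on average. Several other units were nearly as high, among them OCI-AML2 at 11.36, PL-21 at 11.3 and MOLM-13 at 11.09, so a high level was not particular to EOL-1. PDGFRA had log2 levels of 8.07 in EOL-1 and 5.40 in the others (adjusted p = 1 by limma), and without NOMO-1 and GF-D8 its adjusted p was 0.036. With its second probe set the PDGFRA difference was -0.94.

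ME-1, the inv(16) line, stood high for CLC. Its log2 level was 11.59, 2nd of the 30 units behind SKM-1, with HL-60 and PLB-985 averaged to 10.87. Of the 32 lines ME-1 ranked 3rd, behind SKM-1 at 14.34 and HL-60 at 14.17. The CLC difference to the other 29 units was 4.81 ± 2.02. By limma the unadjusted p was 0.0233 and the adjusted p was 1. The difference was 1.90 ± 2.82 for PRG2, 0.47 ± 0.94 for IL5RA, 0.44 ± 1.06 for EPX and 0.25 ± 3.29 for RNASE2 (0.056 without KMOE-2). All 5 differences were positive, and 0 of the 5 passed, against 18 genes, or 0.116%, of all tested (5 higher, or 0.0324%, and 13 lower, or 0.0841%, against 7 higher and 6 lower with each array centred on its median). An unadjusted p under 0.05 was found for 520 genes. ME-1 was among the 3 highest units for 8.08% of genes, and of the 5 for CLC alone.

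CLC is a protein that basophils also hold, and in ME-1 the basophil and mast cell markers had positive differences, of which 0 of 8 passed. The median of the 8 was 3.77, against -0.01 over all genes, and they ran down to 0.49 ± 0.81 for the chymase CMA1 and 0.21 ± 1.24 for ENPP3. TPSAB1, a mast cell tryptase, had log2 levels of 13.98 in ME-1 and 6.68 in the others (difference 7.29 ± 1.97, adjusted p = 0.273 by limma), and TPSB2 of 13.53 in ME-1 and 6.60 in the others (adjusted p = 0.497). CPA3 had log2 levels of 13.23 in ME-1 and 7.65 in the others on average, with 13.19 in FKH-1. HDC, the histamine-forming enzyme, had 11.58 in ME-1 and 7.53 in the others, and KIT 12.94 in ME-1 and 9.46 in the others. Of the 32 lines ME-1 ranked 5th for HDC, with MOLM-16 highest at 14.02, and 5th for KIT, with KASUMI-1 highest at 14.05. It ranked 7th for FCER1A. ME-1 was the highest unit for TPSAB1, TPSB2 and CPA3, as it was for 1.94% of all genes. For the mean log2 level of the 8 markers ME-1 ranked 1st of 32 lines. SKM-1 and HL-60, the lines with the highest CLC, ranked 29th and 22nd. Over the 30 units r of the markers with CLC ran from -0.16 for FCER1A to 0.16 for CPA3. The part of these markers in the CLC level was not tested.

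In the other lists no gene passed in ME-1. The median difference was 0.68 for the transcription factors (8 of 11 positive), 0.58 for the receptor chains (3 of 4), -0.18 for the eosinophil surface and mediator genes (2 of 7), -1.29 for the neutrophil granule markers (3 of 10), -1.67 for the monocyte markers (0 of 6), -0.55 for the erythroid markers (2 of 4) and -0.92 for the ribonuclease A family (0 of 3). IL1RL1, the receptor of interleukin-33 on eosinophils and mast cells, had log2 levels of 9.24 in ME-1 and 7.37 in the others, second of the 30 units. CSF3R, the G-CSF receptor, was highest in ME-1, with log2 levels of 13.21 in ME-1 and 10.11 in the others. MYH11, with log2 levels of 8.77 in ME-1 and 6.17 in the others, had an adjusted p of 0.491 by limma, 0.0498 with each array centred on its median, and 0.00382 without NOMO-1 and GF-D8, and with its second probe set the difference was -1.16.

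The 4 lines grown with an added cytokine had a higher mean PRG2 level, but not beyond the spread among lines. IL-3 and GM-CSF act through the beta chain that the interleukin-5 receptor also uses, and the medium of OCI-AML2, OCI-AML3 and OCI-AML5 was labelled as GM-CSF or SCF without saying which. PRG2 had signals of 40071 in F-36P, 9153.3 in OCI-AML5, 5441.6 in OCI-AML2 and 1090.2 in OCI-AML3. Its log2 level averaged 12.74 ± 2.14 in these 4 lines and 10.14 ± 2.98 in 23 units with no named cytokine (SD), a difference of 2.61 ± 1.46 (SE, adjusted p = 0.892 by limma). The PRG2 difference was 1.76 without F-36P and 3.485 without OCI-AML3. RNASE2 had signals of 18475 in OCI-AML3, 15141 in OCI-AML2, 7081.8 in OCI-AML5 and 15.9 in F-36P, so the IL-3 line lay far from the other 3, and the difference was 1.81 ± 1.67. It was 3.97 without F-36P and 0.91 without OCI-AML3. The difference was 0.56 ± 0.51 for IL5RA, -0.54 ± 0.54 for EPX and -0.87 ± 1.20 for CLC. For IL5RA it was 0.27 without OCI-AML2, 0.73 without OCI-AML3 and at most 1.196 among all alternatives run. For EPX it was -0.29 without F-36P and -0.72 without PLB-985. For CLC it was -0.54 without SKM-1 and -1.01 without OCI-AML2.

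By limma none of the 15455 genes passed in the cytokine comparison (0%, with 878 at an unadjusted p under 0.05), the 5 eosinophil genes included. The median difference was 0.75 for the receptor chains (4 of 4 positive), 0.08 for the eosinophil surface and mediator genes (6 of 7), 0.11 for the transcription factors (6 of 11), -0.45 for the basophil and mast cell markers (2 of 8), 0.62 for the neutrophil granule markers (6 of 10) and for the monocyte markers (4 of 6), -0.03 for the erythroid markers (2 of 4) and 1.96 for the ribonuclease A family (3 of 3), against -0.06 over all genes. Each of the 4 lines differs from the others in more than its medium, and cytokine and line cannot be told apart.

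PIM1, a kinase gene that STAT5 switches on downstream of the IL-3 and interleukin-5 receptors, is one of the targets of PIM inhibitors. The slope of each gene on the log2 level of PIM1 over the 30 units was -0.65 ± 0.26 for RNASE2, -0.31 ± 0.18 for CLC, -0.15 ± 0.24 for PRG2, -0.10 ± 0.09 for EPX and -0.04 ± 0.08 for IL5RA (log2 units per log2 unit of PIM1, ± SE). Leaving out single lines moved all of these slopes both ways. For RNASE2 the slope was -0.58 without MOLM-16 and -0.88 without KMOE-2, both among the lines known as erythroid or megakaryoblastic. The slope was -0.18 for CLC without SKM-1 and -0.39 without KMOE-2. For PRG2 it was -0.07 without NB-4 and -0.24 without OCI-M1. For EPX it was -0.0056 without HL-60 and -0.17 without PLB-985, and for IL5RA -0.02 without OCI-AML2 and -0.08 without KMOE-2. RNASE2 had an unadjusted p of 0.0158 and an adjusted p of 0.587 by limma. None of the 5 passed, against 1 of 15454 genes, or 0.00647%, with 1100 genes at an unadjusted p under 0.05. The median slope was -0.57 for the neutrophil granule markers (1 of 10 positive), 0.23 for the erythroid markers (4 of 4), 0.25 for the receptor chains (3 of 4), 0.12 for the basophil and mast cell markers (5 of 8), -0.14 for the transcription factors (5 of 11), -0.15 for the monocyte markers (2 of 6), 0.04 for the eosinophil surface and mediator genes (5 of 7) and -0.05 for the ribonuclease A family (1 of 3), and no gene of these lists passed.

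**Figure D5:**
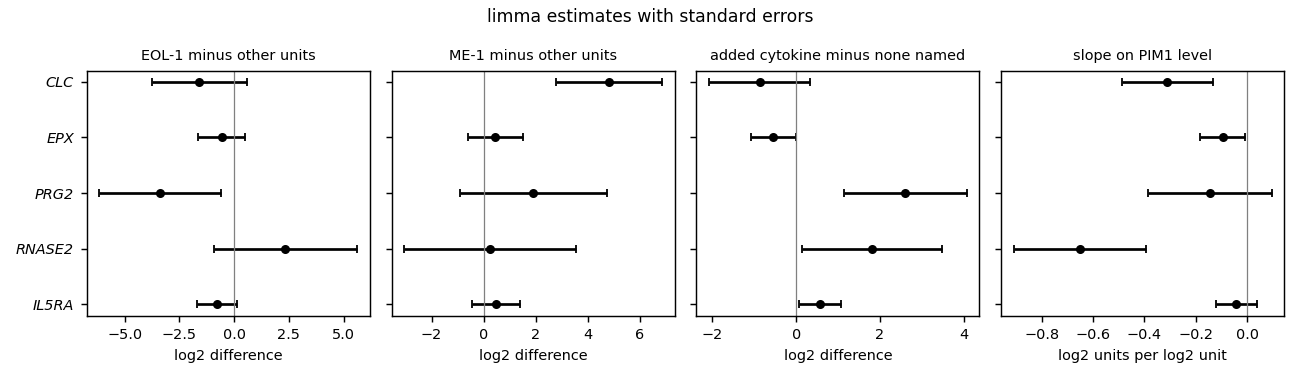
Estimates with standard errors (bars) by limma for each gene in the 4 comparisons: EOL-1 minus the other 29 units, ME-1 minus the other 29 units, 4 lines with an added cytokine minus 23 units with none named (all log2 differences), and the slope on the PIM1 level over 30 units. The x axes differ in scale. CLC in ME-1, at 4.81, is the difference farthest from 0 among those shown, and no estimate passed after adjustment.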

How the data were processed

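Total RNA of 32 AML cell lines was measured on 1 array each. The authors deposited the intensity of every probe set, linear and not logged. Affymetrix Expression Console is the tool that the submitters' processing notes give. Its version and the summarization method are not given in the sources used here. A mean after trimming 2% at each end of 500 to 500.1 on every array shows that the authors scaled the arrays, which fixes the overall signal but not the share of dim probe sets.

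Intensities were taken as log2(signal + 16). The platform annotation gave a single symbol to 41091 of the 54675 probe sets, several to 1801 and none to 11721, besides 62 controls. Only those with a single symbol were named. For the 10523 genes with more than 1 such probe set, that of the highest mean was used. Signals of different genes' probe sets were not set against each other except through the percentile or median of the array, and that place depends on the probe set as well as on the amount of RNA. A gene was tested if its log2 level exceeded 6.73, the median of all values, in at least 3 units, which left 15455 genes. All 5 eosinophil genes with a probe set passed this filter.

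Differences and slopes came from limma 3.58.1 in R 4.3.3 (lmFit, eBayes with a trend), two-sided, adjusted by Benjamini and Hochberg's method over all genes at a threshold of 0.05. EOL-1 and ME-1 are single arrays assumed to vary as the other units do, and p-values measure spread between lines. The number of arrays limits the precision. The models were run on simulated data with planted changes, and a minimum recovery was required for the slope on PIM1 only. Recovery in the other comparisons is not reported here. Correlations are Pearson's r, given as description. Python 3.11.15, pandas 2.3.3 and matplotlib 3.10.9 were used for levels and plots.

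The members, the gene lists and the alternatives were chosen with earlier results of these data known. Genes are named if they are members, belong to a list, passed, or were among the 5 with the highest r with a member over the 30 units. Genes of the lists named with values that did not pass were chosen after their values were seen. In the growth media, KG1 followed by a question mark was taken as KG-1A. The alternatives were other pseudocounts, scalings, filters, probe sets and sets of lines.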

Additional observations from a re-analysis of the deposited data

Results flagged for a closer look

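RNASE2 in F-36P lay apart from the other 3 lines grown with an added cytokine. Its log2 level was 4.99 in F-36P, against 12.79 in OCI-AML5, 13.89 in OCI-AML2 and 14.17 in OCI-AML3. The gap from F-36P to the nearest of the others was 0.8495 of the whole range, above the 95% limit for 4 samples, a limit that chance passes in about 1 in 20 groups. It was the only one over the limit of 16 such gaps examined (the highest and the lowest line for each of the probe sets). F-36P is the one of the 4 grown in RPMI 1640 with IL-3, and it is among the lines known as erythroid, so medium and line cannot be told apart here.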

How the results depend on the processing

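No call on CLC, EPX, PRG2, RNASE2 or IL5RA changed: none passed in any of the 4 comparisons under any alternative run. The lowest adjusted p was 0.484 for CLC in ME-1 and 0.165 for the RNASE2 slope on PIM1. Of their directions 2 turned. RNASE2 in ME-1 was -0.055 with a pseudocount of 64, and the IL5RA slope on PIM1 was 0.20 with the second probe set. With the second probe set PDGFRA in EOL-1 (-0.94) and MYH11 in ME-1 (-1.16) turned as well. The count of genes passing for EOL-1, 1 in the report, was 3 with a pseudocount of 1, 2 with quantile normalization, median centring or no filter, 7 without NOMO-1 and GF-D8, 8 without the arrays of high GAPDH ratio, and 1 to 3 leaving out each line in turn, with 3 without GF-D8 and 2 without MOLM-13. For ME-1 it was 9 with the second probe set, against 18, and 14 to 22 leaving out each line. For the added cytokine it was 4 without the arrays of high GAPDH ratio and 1 with the second probe set, against 0, and 0 to 1 leaving out each line (1 without OCI-AML5). For the slope on PIM1 it was 3 with a pseudocount of 1 or quantile normalization, 2 with median centring, 32 lines as units, without NOMO-1 and GF-D8 or without the arrays of high GAPDH ratio, 5 with the second probe set, against 1, and 1 to 3 leaving out each line, with 3 without OCI-M2, MOLM-16 or GF-D8. The causes were not tested. The ME-1 calls were 8 higher and 4 lower with a pseudocount of 64, and 0 higher and 22 lower with a pseudocount of 1. Median centring moved the median difference of all genes in EOL-1 to 0.22, against -0.10. No paired analysis was possible because each line has 1 array and the labels give no replicate numbers. Low signals limit CLC, EPX and IL5RA, which lay above the median of the array in 8, 17 and 5 of 32 lines.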

Other observations

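None of the 7 eosinophil surface and mediator genes tested peaked in EOL-1, as 1.51% of all genes did. ADGRE1, the adhesion receptor EMR1 of human eosinophils, was highest in SHI-1, with a log2 level of 12.04 against a median of 6.74 over the 32 lines. LGALS12, a galectin, was highest in SKM-1, the line with the highest CLC, at 11.73 against a median of 9.12, and had log2 levels of 5.14 in EOL-1 and 4.62 in FKH-1, the lowest line. P2RY14, a receptor for UDP-sugars, was highest in F-36P at 9.82 and IL1RL1 in MOLM-16 at 10.15. SIGLEC8, an inhibitory receptor of eosinophils and mast cells, did not exceed a log2 level of 7.72, in KMOE-2.

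Between KG-1A and KG-1, 2 of 4 receptor chains and 2 of 8 basophil and mast cell markers were at least 4-fold lower in KG-1A, and none was 4-fold higher, as 2.39% and 3.48% of all genes were. The log2 difference, KG-1A minus KG-1, was -4.73 for CSF2RB, -2.61 for IL3RA, -5.28 for HDC and -3.49 for FCER1A, the alpha chain of the IgE receptor, and 1.97 for CPA3 and 1.87 for TPSB2, with a median of 0.56 over the basophil and mast cell markers. Among the transcription factors it was 3.70 for ID2, an inhibitor of helix-loop-helix factors, and -2.48 for SPI1. In the remaining lists it was -4.37 for LYZ, -3.95 for RNASE6, -3.31 for S100A9 and -2.11 for P2RY14, and 2.66 for LGALS12 and 2.33 for VCAN. These differences rest on 1 array each, and the genes were chosen after their values were seen.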
